A study of Mus musculus with 4 samples.

Results

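Genes of the epithelial-mesenchymal transition (EMT), 10 in all, were followed in mouse embryonic stem cells of wild-type genotype and after conditional deletion of Trim28. They are the epithelial genes Cdh1, Epcam and Esrp1, the mesenchymal markers Cdh2 and Vim, and the transcription factors Snai1, Snai2, Zeb1, Zeb2 and Twist1. They are listed by name, and the list was drawn up with earlier results of these data known, so their count of calls is a description and not an independent test. All 10 had a probe set annotated to that symbol alone, 1 each, among the 18820 genes compared. Trim28, also called KAP1, silences genes from chromatin, where it is recruited by zinc finger proteins with a KRAB domain. The group called KAP_WT (2 samples) carries the genotype wild type and the group called KAP_KO (2 samples) the genotype KAP1 fl/fl, a conditional allele. The 4 samples all carry the treatment label 4-OH-tamoxifen, and the protocol gives 24 h of it, or of ethanol vehicle, and then 48 h without it. The series design sets cells before the knockout against cells after it, so the sources used here do not settle whether KAP_WT is the same line before deletion or another line. Neither the driver of the recombinase nor the number of clones is given in them. All cells grew on irradiated embryonic fibroblasts (MEFs), with no step named that removes these feeders. RNA was read on Affymetrix Mouse Gene ST 1.1 arrays, 1 per sample, and every level below is a log2 array value from RMA, a method that corrects background, normalises arrays and summarises probes.

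EMT is the passage of cells from a sheet held by junctions to a loose, motile state. E-cadherin (Cdh1) holds epithelial cells together through the catenins, and its loss, often with a gain of N-cadherin (Cdh2), is the classical sign of the passage. The zinc finger factors of the Snail and Zeb families and the bHLH factor Twist1 bind E-box motifs and repress epithelial genes, and the miR-200 family restrains Zeb1 and Zeb2. Mouse embryonic stem cells carry E-cadherin, and cells leaving the epiblast through the primitive streak undergo EMT in the embryo.

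The E-box read by Snail and Zeb factors was searched for as CAGGTG on both strands (CACCTG on the printed strand) in the 250 bases before each gene start of RefSeq's GRCm38.p6 annotation. The search covered 5 of the 10 members (Epcam, Vim, Snai1, Zeb2 and Twist1), and 2 of them held a match. No upstream sequence was at hand for Cdh1, Esrp1 and Snai2. Cdh2 and Zeb1 were left out of the search, so it gives no result for them. The stretches for Epcam, with 2 matches, for Snai1, with 1 match, and for Vim, with 0, are shown because they contrast an epithelial gene, a repressor and a mesenchymal gene that were all higher in the knockout. Capitals mark the motif, and each sequence ends at the last base before the gene start.
Epcam, chr17:87635729-87635978, plus strand: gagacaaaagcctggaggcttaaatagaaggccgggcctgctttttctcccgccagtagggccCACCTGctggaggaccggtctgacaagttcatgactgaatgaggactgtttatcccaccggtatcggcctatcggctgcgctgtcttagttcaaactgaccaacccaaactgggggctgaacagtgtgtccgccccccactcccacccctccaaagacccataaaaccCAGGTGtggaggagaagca
Snai1, chr2:167537945-167538194, plus strand: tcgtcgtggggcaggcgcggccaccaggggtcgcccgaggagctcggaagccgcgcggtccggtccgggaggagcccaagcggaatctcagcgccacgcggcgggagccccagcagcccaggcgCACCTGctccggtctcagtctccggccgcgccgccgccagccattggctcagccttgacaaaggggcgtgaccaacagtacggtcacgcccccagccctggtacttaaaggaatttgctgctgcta
Vim, chr2:13574061-13574310, plus strand: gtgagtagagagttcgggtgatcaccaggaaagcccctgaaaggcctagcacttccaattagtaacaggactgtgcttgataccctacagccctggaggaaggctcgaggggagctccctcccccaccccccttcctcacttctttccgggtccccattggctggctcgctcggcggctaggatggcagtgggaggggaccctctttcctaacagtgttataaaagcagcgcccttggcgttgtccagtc

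The 2 matches upstream of Epcam begin 187 and 19 bases before its start, and that of Snai1 begins 126 bases before. Of all 32851 upstream windows of this length, 17.2% held the motif. Counted by gene, as the members are above, 19.4% of 27025 genes held it in any window, so a match is common. It describes letters in a window and says nothing of binding.

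Both sides of the programme were higher in the knockout. Of the 10 members, 9 rose and 0 fell at an adjusted p under 0.05 (limma, Benjamini-Hochberg over all 18820 genes), and Zeb1 missed the threshold. At an unadjusted p under 0.05, 1 member was lower, Zeb1. Over all genes tested, 14.2% were called higher and 12.7% lower at the adjusted threshold. The shares of all genes at an unadjusted p under 0.05 were not counted. Unadjusted counts here and below therefore have no share beside them. A change of at least 2-fold was called for 6 members, all rises, against 4.44% of all genes called higher at that size. The median change of the 10 members was 1.26 on the log2 scale, against -0.05 for all genes tested. No member had overlapping groups, which was also true of 65.2% of all genes.

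**Figure D1:**
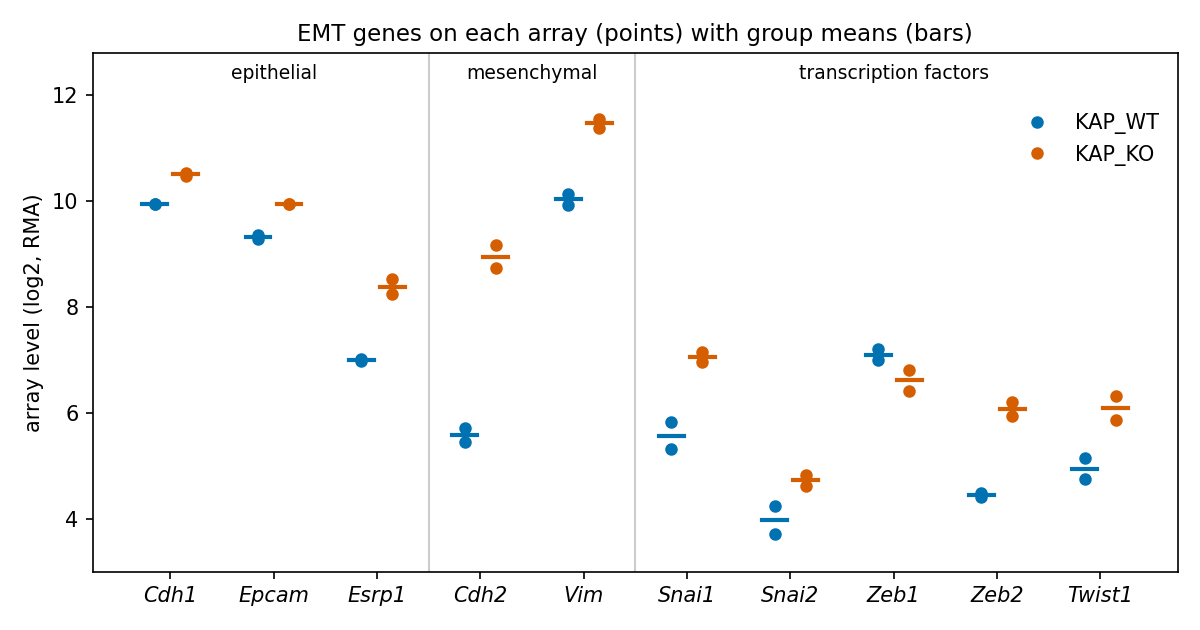
Log2 array level (vertical axis) of the 10 genes on each array, with KAP_WT in blue and KAP_KO in orange; points are single arrays and bars are group means (n = 2 each). The knockout arrays lie above the wild-type arrays for 9 genes, epithelial and mesenchymal alike, and below them for Zeb1.

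The arrays of a group were close to each other, with Pearson's r over all probe sets of 0.994 in KAP_WT, against 0.995 in KAP_KO, and 0.974 to 0.976 across groups. Trim28 fell by 2.38 (SE 0.09, limma adjusted p = 3.39e-05), from 11.33 ± 0.06 to 8.94 ± 0.03 (SD, n = 2 each), 5.22-fold lower, so that signal of its probe set remained in the knockout. That remaining level stood at percentile 89.3 of the genes tested in KAP_KO. Whether it came from the stem cells or the feeders was not tested. The precision is limited by having 2 arrays a group, and the p-values cover only the spread between these samples. Were the groups separate lines or clones, that difference and the loss of Trim28 cannot be told apart. Pluripotency markers were present in both groups, and 5 of 8 were lower in the knockout and 0 higher, beside 12.7% and 14.2% of all genes. The marker counts were 7 and 0 at an unadjusted p under 0.05 (limma), to which the shares of all genes just given do not apply. Esrrb, a naive-state nuclear receptor gene, fell by 1.11 (limma adjusted p = 4.77e-03), a call not kept in every fit without a wild-type sample. Tdgf1, a Nodal co-receptor gene, had a change of 0.15 (limma adjusted p = 0.342).

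Among the epithelial members, Cdh1 encodes E-cadherin, the adherens junction protein of epithelia and of naive stem cell colonies. It read 9.95 and 9.94 on the KAP_WT arrays, against 10.48 and 10.54 on the KAP_KO arrays. Both knockout arrays were above both wild-type arrays, and the replicates differed by less than 0.1. The mean went from 9.94 ± 0.01 to 10.51 ± 0.04 (SD, n = 2 each), a rise of 0.57 (SE 0.09, 95% confidence interval 0.35 to 0.78, limma adjusted p = 4.53e-03), or 1.48-fold.

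Epcam encodes a homophilic adhesion protein at the surface of epithelial and pluripotent cells. It read 9.28 and 9.37 in KAP_WT, against 9.95 and 9.94 in KAP_KO. The groups stood apart by several times the distance between replicates. The rise was 0.62 (SE 0.09, 95% confidence interval 0.40 to 0.84, limma adjusted p = 3.37e-03), 1.54-fold.

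Esrp1 encodes an RNA-binding protein that sets epithelial splice forms. It read 6.99 and 7.02 in KAP_WT, against 8.53 and 8.25 in KAP_KO. The knockout arrays were the more spread pair, and the lower of them was still above both wild-type arrays. Esrp1 rose by 1.38 (SE 0.12, 95% confidence interval 1.10 to 1.66, limma adjusted p = 3.86e-04), 2.60-fold, the largest change of the 3 epithelial members. The arrays were summarised per gene, so they do not read the splice forms that Esrp1 sets.

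Among the mesenchymal markers, Cdh2 encodes N-cadherin, the adhesion protein of neural, mesodermal and many mesenchymal cells. It read 5.72 and 5.46 in KAP_WT, against 8.74 and 9.17 in KAP_KO. The gap between the groups was many times the distance between replicates. The mean went from 5.59 ± 0.18 to 8.95 ± 0.30, a rise of 3.37 (SE 0.16, 95% confidence interval 2.98 to 3.75, limma adjusted p = 6.53e-05), or 10.3-fold. In the order of all changes from the highest rise down, Cdh2 stood at place 28 of 18820.

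Vim encodes vimentin, the intermediate filament of mesenchymal cells, which cultured stem cells also make. It read 10.14 and 9.93 in KAP_WT, against 11.38 and 11.56 in KAP_KO. Levels were high on all 4 arrays, and higher still in both knockout samples. The rise was 1.44 (SE 0.12, 95% confidence interval 1.16 to 1.71, limma adjusted p = 3.34e-04), 2.71-fold.

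The cadherins can be set against each other within an array, where a shift of a whole array cancels. The difference of Cdh2 minus Cdh1 was -4.23 and -4.48 on the KAP_WT arrays, against -1.74 and -1.37 on the KAP_KO arrays. It therefore moved by 2.80 towards Cdh2 while Cdh1 itself was higher. The size of that difference on any 1 array has no meaning, since the probe sets differ. In the same way, Vim minus Epcam moved by 0.82, from 0.86 and 0.56 to 1.43 and 1.62. Cdh1 minus Epcam moved by -0.06, from 0.67 and 0.57 to 0.53 and 0.60, values that overlap between the groups. These movements were not tested.

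**Figure D2:**
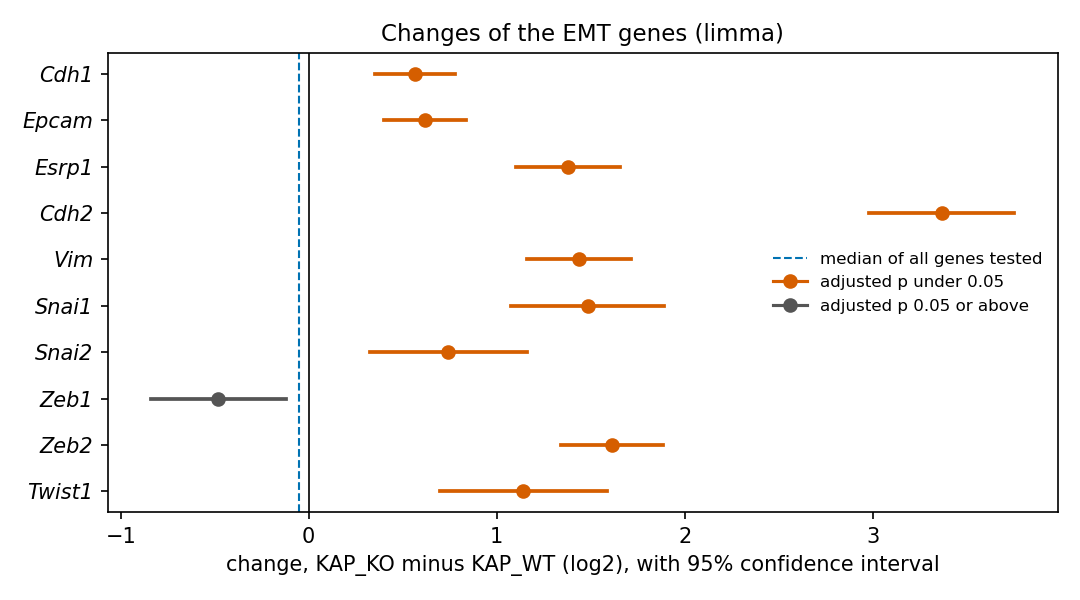
Change of each gene, KAP_KO minus KAP_WT on the log2 scale (horizontal axis), with its 95% confidence interval from limma (n = 2 each); orange marks an adjusted p under 0.05, grey one at or above it, and the dashed line the median of all genes tested (-0.05). Cdh2, at 3.37, lies apart from the other members, and Zeb1, at -0.48, is the only one below 0.

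Of the 5 transcription factor members, 4 rose, beside 14.2% of all genes called higher. In KAP_WT, 3 of the 5 (Snai2, Zeb2 and Twist1) lay below the median level of the genes tested, and in KAP_KO 1 did (Snai2). Snai1 encodes Snail, a repressor of Cdh1 needed for gastrulation. It read 5.32 and 5.83 in KAP_WT, against 6.97 and 7.15 in KAP_KO. The wild-type arrays differed by about as much as any member's did, and the groups stayed apart. Snai1 rose by 1.48 (SE 0.17, 95% confidence interval 1.08 to 1.89, limma adjusted p = 1.22e-03), 2.80-fold.

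Snai2 encodes Slug, another Snail family repressor, active in neural crest and mesoderm. It read 4.25 and 3.72 in KAP_WT, against 4.83 and 4.63 in KAP_KO. The distance between the wild-type arrays was larger than the gap from the higher of them to the lower knockout array. The rise was 0.74 (SE 0.18, 95% confidence interval 0.32 to 1.16, limma adjusted p = 0.0217), the smallest among the called factors. Without wild-type replicate 2 it was 0.48 with an adjusted p of 0.0912, and without knockout replicate 1 it was 0.65 with an adjusted p of 0.0589. Such fits leave 1 sample in a group, which is assumed to vary like the other group.

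The Zeb genes went opposite ways in value. Zeb2, a Smad-interacting zinc finger repressor, read 4.42 and 4.50 in KAP_WT, against 5.95 and 6.20 in KAP_KO. Its replicates were close and its groups far apart. It rose by 1.61 (SE 0.11, 95% confidence interval 1.34 to 1.89, limma adjusted p = 2.02e-04), 3.06-fold, the largest change of the factors here. A second probe set, annotated to both Zeb2 and its antisense neighbour Zeb2os, read 3.40 in KAP_WT, against 3.43 in KAP_KO, and was not used for Zeb2.

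Zeb1, the other repressor of the family, read 7.21 and 7.00 in KAP_WT, against 6.82 and 6.43 in KAP_KO. Both knockout arrays were below both wild-type arrays, by less than the distance between replicates. The change was -0.48 (SE 0.15, 95% confidence interval -0.84 to -0.12, limma adjusted p = 0.0564). It was negative in all 14 alternatives tried and passed the threshold in 7 of them. Zeb2 minus Zeb1 within an array moved by 2.10, from -2.79 and -2.50 to -0.87 and -0.23.

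Twist1 encodes a bHLH factor of head mesenchyme and mesoderm. It read 5.14 and 4.75 in KAP_WT, against 5.86 and 6.32 in KAP_KO. The pairs were loose but did not overlap. It rose by 1.14 (SE 0.19, 95% confidence interval 0.70 to 1.59, limma adjusted p = 5.27e-03), 2.21-fold. Without wild-type replicate 2 the rise was 0.95 with an adjusted p of 0.0629.

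The balance of all calls depends on scaling, and the members' directions did not in the scalings tried. As deposited, 52.8% of the 5071 calls were rises. With each array's median over the tested genes subtracted, the median change of all genes went from -0.05 to -0.22 and 24.4% of 8457 calls were rises. With medians over all probe sets subtracted the share was 50.2% of 5192 calls. Under the scaling by tested genes the same 9 members were still called higher, and Zeb1 was called lower, at -0.65 (limma adjusted p = 0.0111).

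Genes next to the members on the chromosome had median changes near 0. The median change of the 20 nearest tested genes, 10 on each side in GRCm38.p6 order, lay between -0.13 (around Cdh2) and 0.18 (around Esrp1). The neighbours called ranged from 1 of 20 around Snai1, as lower, to 5 higher and 5 lower around Twist1, beside 26.9% of all genes called; around Zeb1, 7 were higher and 1 lower. Around Cdh1, the highest neighbour was Cdh3 (P-cadherin), at 1.58, itself a cadherin of epithelia. The neighbours of Cdh2 included desmosomal cadherin genes that went both ways, Dsc2 at 1.68 and Dsg2 at -1.22.

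In the wider cadherin family, 7 of 20 other members on the array rose and 0 fell (1 was lower at an unadjusted p under 0.05), 35% called against 26.9% of all genes in either direction. Cdh10, a neuronal type II cadherin, rose by 2.76, from 3.42 ± 0.26 to 6.18 ± 0.23 (SD, n = 2 each; limma adjusted p = 1.07e-04). Cdh6, of kidney and neural crest, rose by 1.59, Cdh3 by 1.58 and Cdh11, a cadherin of mesenchymal cells, by 1.26. The family's median change was 0.05. Most of these genes were dim: 17 of the 20 lay below the median level of the genes tested in KAP_WT, Cdh10 among them, and 15 in KAP_KO. When only genes above the median of mean level were fitted, 2 were called higher. With medians over tested genes subtracted, 6 were called higher and 4 lower; the other alternatives called 0 lower.

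**Figure D3:**
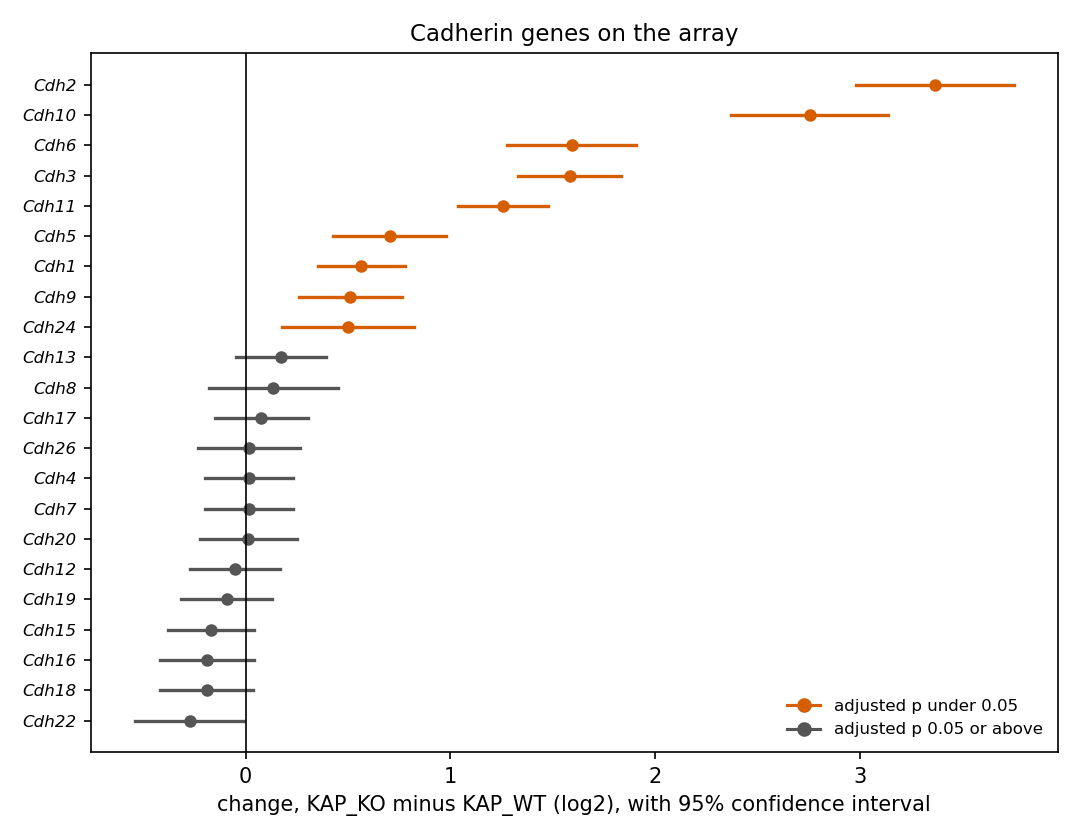
Change of 22 cadherin genes, KAP_KO minus KAP_WT on the log2 scale (horizontal axis), with 95% confidence intervals from limma (n = 2 each), ordered by size; orange marks an adjusted p under 0.05. Cdh2 (3.37) and Cdh10 (2.76) lead, Cdh1 (0.57) lies among the smaller rises, and 13 genes lie near 0 in grey.

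Catenins link cadherins to actin. Of 9 measured, 4 rose and 0 fell as deposited (limma, also at an unadjusted p under 0.05), with a median change of -0.02. The share called was 44.4%, against 26.9% of all genes. Subtracting medians over tested genes turned the counts of 4 and 0 into 2 and 3. Ctnnd2, the neural delta-catenin gene, rose by 1.38, Ctnnd1 (p120-catenin) by 0.49, Jup (plakoglobin) by 0.48 and Ctnna2 by 0.36. Without wild-type replicate 1, wild-type replicate 2 or knockout replicate 2, 1 catenin was called higher, Ctnnd2. Ctnnb1 (beta-catenin) read 11.01 and 10.90 in KAP_WT, against 10.95 and 10.92 in KAP_KO, levels that overlap.

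Junction and surface genes of epithelia shared the direction of Cdh1 and Epcam in large part. Of 23 measured, 13 rose and 2 fell, 65.2% called against 26.9% of all genes, with a median change of 0.48. The counts were 11 and 3 once medians over tested genes were subtracted. The tight junction claudin genes Cldn6 and Cldn7 rose by 1.75 and 1.64. Prss8, a membrane serine protease gene of epithelia, rose by 1.64, and Mal2, a gene of apical transport, by 1.63. Cldn6 read 8.88 and 8.73 in KAP_WT, against 10.54 and 10.57 in KAP_KO, with close replicates in both groups (limma adjusted p = 9.33e-05). The falls were those of Tjp3 (-0.65), a tight junction scaffold gene, and Llgl2 (-0.45), a polarity gene. Tjp3 lost its call without either wild-type sample or knockout replicate 2, and Llgl2 without wild-type replicate 2.

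Regulators of the epithelial state were mixed. Of 10 measured, 3 rose and 2 fell, 50% called against 26.9% of all genes, with a median of 0.02. The counts were 3 and 4 once medians over tested genes were subtracted. They were 1 and 1 without wild-type replicate 1, and 0 and 1 without wild-type replicate 2. Esrp2, the paralog of Esrp1, rose by 0.58 (SE 0.11), and Ovol1, a repressor gene of epithelia, by 0.57. The falls were those of Klf4 (-1.34) and Klf5 (-1.19), Krüppel-like factor genes that serve both epithelia and naive pluripotency. Klf4 read 9.55 and 9.34 in KAP_WT, against 8.53 and 7.69 in KAP_KO, so that its knockout arrays differed widely from each other.

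Among other EMT transcription factor genes rises prevailed. Of the 15 on the array, 9 rose and 2 fell, 73.3% called against 26.9% of all genes, with a median of 0.69. The counts were 8 and 2 once medians over tested genes were subtracted. Foxq1, a forkhead gene, rose by 1.99, from 4.88 ± 0.22 to 6.87 ± 0.17 (SD, n = 2 each). The forkhead gene Foxc1 rose by 1.36, Sox4 by 1.08 and Twist2, the paralog of Twist1, by 1.01. Klf8 fell by 0.75 and Prrx2 by 0.37, the latter with no call without either wild-type sample or knockout replicate 2.

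Other mesenchymal markers were higher in most cases, with a clear exception. Of 15 measured, 9 rose and 1 fell, 66.7% called against 26.9% of all genes, with a median of 0.87. Loxl2, a matrix cross-linking oxidase gene, rose by 2.74, the receptor tyrosine kinase gene Axl by 2.30 and the membrane metalloproteinase gene Mmp14 by 1.83. Tgfbi, a matrix gene induced by TGF-beta, fell by 2.21, from 8.88 and 8.70 to 6.58 and 6.59. Fn1 (fibronectin) read 10.97 and 10.79 in KAP_WT, against 10.97 and 10.86 in KAP_KO. Among Vim's relatives of the type III filaments, Prph (peripherin) rose by 0.59 and Des (desmin) fell by 0.45. Prph lost its call without wild-type replicate 1, and Des without either wild-type sample or knockout replicate 2.

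TGF-beta signalling is a classical inducer of EMT. Of 8 measured genes of this pathway 5 rose and 1 fell, 75% called against 26.9% of all genes, with a median of 0.73. The ligand gene Tgfb2 read 4.28 and 4.37 in KAP_WT, against 6.47 and 6.65 in KAP_KO, a rise of 2.24 (SE 0.10, limma adjusted p = 5.85e-05). The receptor gene Tgfbr1 rose by 0.95, the ligand gene Tgfb3 by 0.84 and the effector gene Smad3 by 0.76. The fall was that of Smad7, the inhibitory Smad gene, from 9.79 and 9.57 to 9.23 and 8.89, a call lost without either wild-type sample or knockout replicate 2.

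**Figure D4:**
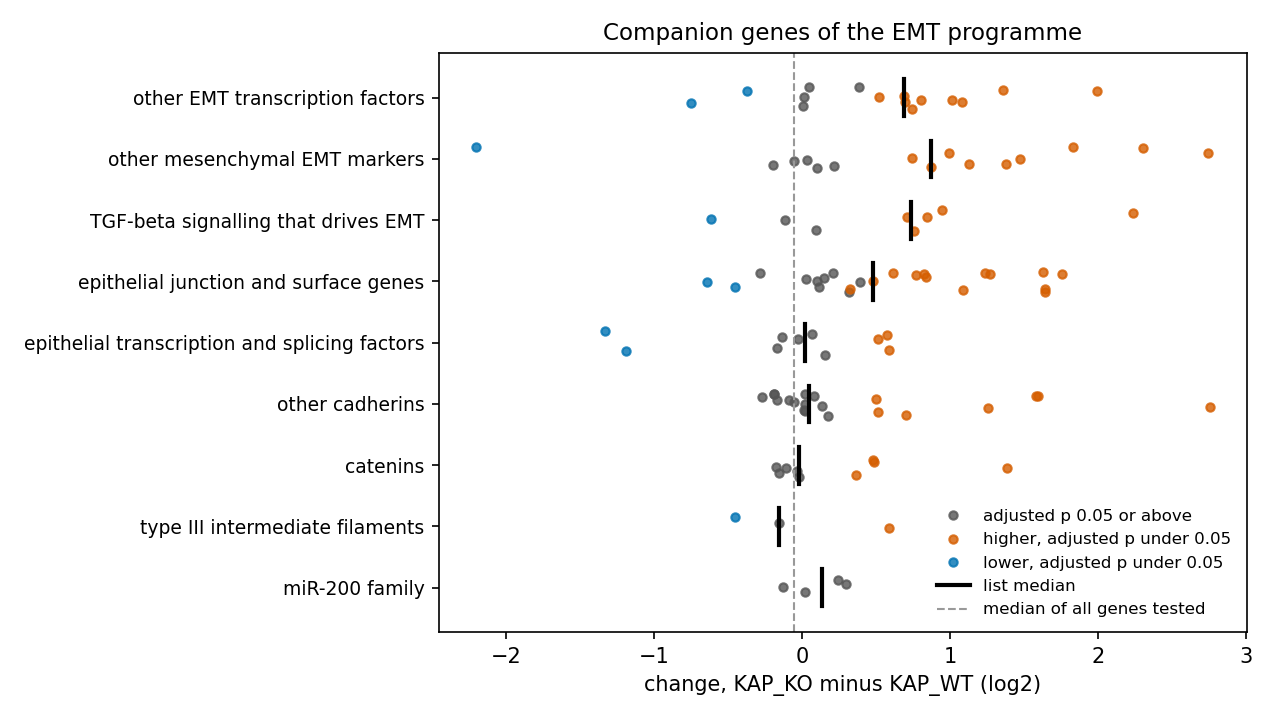
Change of each gene in 9 companion lists, KAP_KO minus KAP_WT on the log2 scale (horizontal axis); orange and blue points passed an adjusted p of 0.05 as higher or lower, grey points did not, black bars are list medians and the dashed line is the median of all genes tested (-0.05). Rises prevail both in the mesenchymal lists and in the epithelial junction list, and no probe set of the miR-200 family was called, all for the values as deposited.

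The miR-200 family pairs with Zeb1 and Zeb2 messages through its seed, bases 2 to 8 of the mature RNA, shown in capitals for the 3p arms of RefSeq's GRCm38.p6 annotation. The family has 2 seeds, which differ at 1 base.
mmu-miR-200a-3p: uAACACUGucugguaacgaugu
mmu-miR-141-3p: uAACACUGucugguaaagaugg
mmu-miR-200b-3p: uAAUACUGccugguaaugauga
mmu-miR-200c-3p: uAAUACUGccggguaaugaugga
mmu-miR-429-3p: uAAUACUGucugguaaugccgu

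Of the 5 genes, 4 had a probe set of their own, and 0 passed in limma; at an unadjusted p under 0.05, 1 was higher (Mir200a). Mir200a read 3.88 and 3.98 in KAP_WT, against 4.33 and 4.13 in KAP_KO, a change of 0.30 (95% confidence interval 0.04 to 0.55, limma adjusted p = 0.0849). Mir200b had a change of 0.24, Mir200c of 0.02 and Mir141 of -0.13. With medians over tested genes subtracted, 1 of them was called lower. All 4 probe sets lay below the median level of the genes tested in both groups, and their signal over background is unknown. Gene-level probe sets on such arrays need not read the mature miRNA.

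Fibroblasts, the feeder cells of these cultures, also make Vim, Cdh2, Snai2, Twist1, Zeb1 and Zeb2. Of 12 fibroblast markers, 8 rose and 0 fell in the same samples (limma), beside 14.2% and 12.7% of all genes. The marker counts were the same at an unadjusted p under 0.05 (limma), to which these shares of all genes do not apply. The mean level of the 12 was 4.58 and 4.43 in KAP_WT, against 5.38 and 5.42 in KAP_KO. Of the 12, 10 lay below the median of the genes tested in KAP_WT, and 6 did in KAP_KO. The matrix gene Dcn rose by 2.64, from 3.55 and 3.25 to 5.56 and 6.51. Fap, a fibroblast surface protease gene, read 2.77 in KAP_WT, against 2.69 in KAP_KO, and Lum, a matrix gene, 3.06 and 3.23, both dim. In bulk RNA, more cells of a type and more RNA per cell cannot be told apart. The part of feeder cells in the mesenchymal rises was not tested.

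Markers of other lineages the cultures could hold were called at shares from 25% (mesoderm) to 80% (neural), beside 26.9% of all genes. Endoderm markers rose in 4 of 7 cases and fell in 0 (5 and 0 at an unadjusted p under 0.05, limma), with a change of 1.47 for Gata4 and of -0.08 for Afp, which was not called. Neural markers rose in 3 of 5 and fell in 1, with Nes (nestin) at 2.36 and Sox1 at -1.33. Trophoblast markers rose in 2 of 7 and fell in 1, with Cdx2 at 1.03 and Tfap2c at -0.81. Mesoderm markers rose in 1 of 4 and fell in 0 (2 and 0 unadjusted), with a change of 0.67 for Kdr, whose call was lost without either wild-type sample or knockout replicate 2, and of -0.17 for Tbx6, which was not called. The part of such cells in the members' changes was not tested.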

How the data were processed

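Total RNA (250 ng per sample) was labelled as biotinylated cDNA. The deposited table holds log2 values for 35556 probe sets, and the submitters' processing notes name affy and RMA, without versions, for how the authors made them. RMA compresses small differences among dim probe sets. The values were taken as deposited.

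Platform annotation gave 21218 probe sets a single symbol. The one with the highest mean was kept per gene, which left 18820 genes, with no filter on dim genes. KAP_KO was compared with KAP_WT with lmFit and eBayes of limma 3.58.1 (R 4.3.3, two-sided, Benjamini-Hochberg, threshold 0.05). The same fit was run on simulated data, with levels and spread taken from the fit to these arrays. There, 7 genes left unchanged were called. Of the changes made, 12 of 67 of 0.5 on the log2 scale were recovered, 61 of 67 of 1 and 66 of 66 of 2. A gene not called can therefore hold a change near 0.5. Far fewer genes were changed in the simulation than were called here, so these shares need not hold for the data. The members and lists were chosen with earlier results of these data known. The text names all members, Trim28, up to 4 called genes per companion list with the largest change, the extremes of each marker list and the 3 nearest profiles to Cdh1 and Cdh2; Ctnnb1, Fn1, Lum, Tjp3, Llgl2, Klf8, Prrx2, Smad7, the miR-200 genes and chromosomal neighbours were named after their values were seen. Detection calls were not used here.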

Additional observations from a re-analysis of the deposited data

How the results depend on the processing

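Over 14 alternatives, the 10 members gave 137 values, none reversed; 127 kept their side of the threshold, 3 lost a call (Snai2 and Twist1, given above) and 7 gained one, all of Zeb1. Genes above the median level included 7 of the members. The count of members called lower was 1 in place of 0 above the lower quartile or the median of mean level, after quantile normalization, with either array median subtracted, with an adjusted p under 0.1, and between 0 and 1 with 1 sample left out. With the replicate number as a block it was also 1 (Zeb1, limma adjusted p = 0.0194), and 5093 genes were called in place of 5071; the labels give the numbers no shared origin, and the deviations of the replicate 1 arrays correlated at r = 0.15. With medians over tested genes subtracted 8457 genes were called, 6392 of them lower, and with medians over all probe sets subtracted 5192, 2588 of them lower. With at least 2-fold, 1109 were called, 835 higher and 274 lower. With 1 sample left out, the counts ranged from 2430 to 4350 in all, 1531 to 2405 higher and 899 to 1945 lower. Of 288 companion list counts, 246 stayed within 1.5 times, and these include counts of 0 that stayed at 0. Signal over background is unknown.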

Other observations

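The genes whose profiles over the 4 arrays lay nearest to that of Cdh2, each centred on its own mean, were Pxdc1 (distance 0.14), Bmp1 (0.16) and Sema6a (0.22), with changes of 3.46, 3.50 and 3.53. Bmp1 encodes a procollagen-processing protease and Sema6a a guidance semaphorin. Nearest to Cdh1 were Dpp8 (0.03), Atrn (0.04) and Soga1 (0.04), with changes of 0.59, 0.54 and 0.52. Only genes at or above the median level were searched, and the likeness rests on 4 arrays in 2 groups.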
